A study of Pleurotus tuoliensis with 2 samples.

Results

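The proteins that carry cargo between membranes and those that build autophagosomes were followed as RNA in mycelia of the edible mushroom *Pleurotus tuoliensis*. A unigene, which is the longest assembled isoform of each transcript group, was included when its Swiss-Prot protein name held one of 13 words or phrases, among them autophagy, vacuolar protein sorting, coatomer, clathrin, exocyst and trafficking protein particle. Names that also held kinase, ubiquitin, transcription or protease were left out, which removed 1 of 161 matches, and all of the remaining 160 had a mean expression above 1 FPKM (mapped fragments scaled by the length of the transcript and the depth of the library). These 160 unigenes were taken from 17030 in the table, of which 7114 carried a Swiss-Prot name and 16496 passed the same expression limit and were tested.

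Strain ACCC 50869 was grown in bottles of 820 g substrate in the dark. Immature mycelia came from 3 bottles after 37 days at 25 °C (day 0), and mature mycelia from 3 other bottles after a further 35 days at 17 °C. Both groups carried the same genotype and had passed through the same warm phase, so maturity, temperature and culture age changed together and cannot be told apart. With 1 bottle to a library, replicate error here measures differences between cultures. The number of fragments behind each FPKM is unknown, but the smallest value above 0 was 3.28 to 4.63 FPKM in unigenes of 240 to 260 bases and 0.24 to 0.29 FPKM in those of 500 to 520 bases, so short unigenes rest on few fragments. Marker unigenes were used to check that the material was fungal mycelium, which cannot check its stage. They were 9 unigenes of hydrophobins and other SC fruiting-body proteins, which are fungal cell-wall surface proteins, and 25 of chitin synthase. All 9 and all 25 were above 0 in every library, with summed levels of 551 to 814 FPKM and of 2534 to 2856 FPKM, and no unigene (0) had its best Nr match in cotton, maize or wheat. Both sums were lower in each mature bottle than in each immature one, for the 9 at 790, 814 and 671 FPKM (immature) and 570, 564 and 551 FPKM (mature). These differences were not tested.

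In fungi, proteins enter the endoplasmic reticulum (ER) through the Sec61 channel, leave it in COPII-coated vesicles and return from the Golgi in COPI-coated ones. Clathrin with its adaptors, retromer and the ESCRT machinery sort cargo among the Golgi, the endosomes, the vacuole and the plasma membrane, while tethering complexes and SNAREs bring each vesicle to its target and fuse it. Hyphae depend on this traffic because they extend at the tip, where secretory vesicles gather. Autophagy wraps cytoplasm in a double membrane that grows around Atg8 and delivers it to the vacuole for reuse, and is known for recycling nutrients in starved cells.

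The names held together with annotation that the choice had not used. In eggNOG, a database of orthologous groups, 141 of the 160 unigenes (88.1%) belonged to category U, intracellular trafficking and secretion, against 576 of all 16496 tested (3.49%). All 160 matched a protein in the Nr database, 144 of them one of *Pleurotus*. The other 16 had their best match in another mushroom genus, and 6 of these were under 500 bases. In Swiss-Prot, 98 matched a fungal protein and 62 a protein of another organism, so names such as AP1S1 or EXOC2 are those of the nearest annotated relative. The 160 unigenes matched only 114 different Nr proteins, and 73 of them shared a protein with at least 1 other. Unigenes matched to one protein are not independent, and whether they are parts of one transcript or separate copies was not tested. One unigene was no traffic protein: DN4696_c0_g3 entered through the letters within the name of a Ras GTPase-activating protein, gap-2, and stayed in all counts.

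As RNA, this machinery differed little between immature and mature mycelia. None of the 160 unigenes (0) passed the thresholds of the study (unadjusted p of at most 0.05 and an absolute log2 ratio of at least 1), which 3.01% of all tested unigenes passed in the same limma fit, 1.18% with higher and 1.82% with lower expression in mature mycelia. None (0) reached a Benjamini-Hochberg adjusted p under 0.05, which 0.0667% of all did, and the lowest adjusted p was 0.13. At an unadjusted p of at most 0.05, 7 were higher and 8 lower in mature mycelia, 15 in all (9.38%), against a background of 15.4%, made up of 6.09% higher and 9.33% lower. Among the 7083 tested unigenes with a Swiss-Prot name, which are the closer comparison, 1.88% passed the thresholds of the study and 16.8% had such a p. The split was 4 higher and 11 lower when all libraries were scaled to the same sum, against 5.39% and 10.3% of all tested in that fit. It was 8 higher and 5 lower under both upper-quartile scaling, where 7.78% and 7.72% of all were called, and quantile normalization, where 8.12% and 7.15% were. Immature and mature bottles were fully apart in 27 unigenes (16.9%), 11 with higher and 16 with lower mature values, against 22.9% of all tested, 8.69% higher and 14.2% lower. The median log2 ratio of mature over immature mycelia, on the log2(FPKM + 1) scale, was -0.06 over the 160 and -0.07 over all tested, with 61 of the 160 above and 99 below 0. Among all tested unigenes 6985 lay above and 9511 below. An exact two-sided permutation test on 3 against 3 bottles has 0.1 as its smallest possible p.

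The intervals of these ratios were narrow. The 95% interval of the log2 ratio lay wholly between -1 and 1 in 148 of the 160 unigenes (92.5%), against 62.3% of all tested, and between -0.5 and 0.5 in 89 (55.6%), against 23.6%. Among tested unigenes with a Swiss-Prot name these shares were 78.9% and 35.1%. Traffic unigenes were longer (median 1222.5 against 887 bases) and more abundant (median of the mean FPKM 47.0 against 28.1) than all tested unigenes, and their median residual SD was 0.146 against 0.251 on the log2 scale. Of the 135 traffic unigenes of at least 500 bases, 133 (98.5%) had an interval within 1 of 0 and 86 (63.7%) within 0.5 of 0, against 76.6% and 31.0% of all tested unigenes of that length. At this length 11 of the 135 (8.15%) reached the unadjusted p of 0.05 and none (0) passed the thresholds of the study, against 17% and 1.92% of all tested unigenes of that length. The 9 under 300 bases had a median residual SD of 0.711, and none of them (0) had an interval within 1 of 0.

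**Figure D1:**
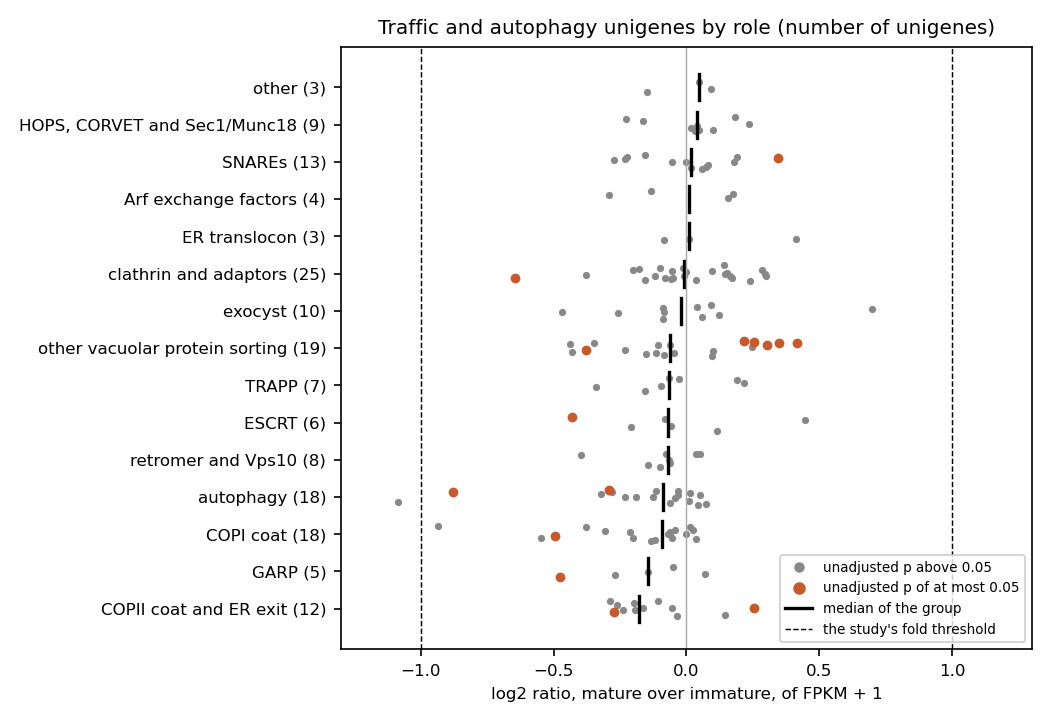
Log2 ratio of mature over immature mycelia (x axis, log2 of FPKM + 1) of each of the 160 traffic and autophagy unigenes, by role (y axis, number of unigenes in brackets), with those at an unadjusted p of at most 0.05 in orange and the median of each role as a bar. All role medians lie between -0.18 (COPII coat) and 0.05, and the only unigene beyond the dashed threshold of the study, at -1.08, has a length of 356 bases and a p of 0.12.

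The roles lay close together in the plot of log2 ratios by role, and the levels differed far more between roles than between groups of bottles. The SNARE synaptobrevin DN4733_c0_g1 was the most abundant unigene of all 160 at a mean of 727 FPKM, followed by DN4824_c0_g1 and DN2780_c0_g1, which encode the small β and γ subunits of the Sec61 channel, at 596 and 593 FPKM. The 7 unigenes of TRAPP, a complex that tethers vesicles and activates Rab GTPases, had the lowest median level of the roles, 21.3 FPKM. FPKM is a level per length, so these levels can be set side by side, with the reservation that unigenes matched to one protein differed among themselves.

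At the ER, the channel itself gave no difference beyond the spread between bottles. The γ subunit DN2780_c0_g1 had the largest log2 ratio, with 506, 551 and 455 FPKM in immature bottles 1, 2 and 3 and 520.3, 688 and 839 FPKM in mature bottles 1, 2 and 3. Mature bottles 2 and 3 stood above the immature range and mature bottle 1 within it (log2 ratio 0.41, SE 0.20, unadjusted p = 0.085, adjusted p = 0.38, limma). The β subunit DN4824_c0_g1 and the pore-forming α subunit DN9829_c0_g1 had log2 ratios of 0.01 and -0.08, with 95% intervals of -0.30 to 0.32 and -0.49 to 0.32.

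Of the 12 unigenes of the COPII coat and ER exit, 10 had a log2 ratio below 0, and the median of -0.18 was the lowest of the roles. Sec23, which forms the inner coat and speeds GTP hydrolysis by Sar1, was carried by 3 unigenes of one *P. ostreatus* protein. The longest, DN7121_c0_g1 (2462 bases), had 55.6, 58.5 and 59.6 FPKM in immature bottles 1, 2 and 3 and 45.1, 49.9 and 48.2 FPKM in mature bottles 1, 2 and 3. Each mature bottle was below each immature one, and this was the only one of the 12 lower at an unadjusted p of at most 0.05 (log2 ratio -0.27, SE 0.09, unadjusted p = 0.022, adjusted p = 0.25). The other Sec23 unigenes, DN7121_c0_g2 and DN7121_c0_g3, had ratios of -0.24 and -0.20 with overlapping groups. Its partner Sec24, the cargo-binding subunit (DN6979_c1_g1), had 61.8, 76.2 and 69.6 FPKM in immature bottles 1, 2 and 3 and 60.9, 58.3 and 61.4 FPKM in mature bottles 1, 2 and 3. Sec31 of the outer coat (DN8483_c0_g1) had 48.5, 53.2 and 54.5 FPKM in immature bottles 1, 2 and 3 and 42.9, 48.1 and 48.04 FPKM in mature bottles 1, 2 and 3. In both, the groups did not overlap, but the lowest immature and the highest mature value lay less than 1 FPKM apart, and the unadjusted p was 0.12 and 0.15. These 2 were picked out after their values were seen.

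Cargo receptors of the same vesicles went in both directions. Erv14 (DN9130_c1_g4), which in yeast loads membrane proteins into COPII vesicles, had 89.3, 103 and 99.8 FPKM in immature bottles 1, 2 and 3 and 122.6, 109.8 and 117 FPKM in mature bottles 1, 2 and 3, and all mature bottles were above all immature ones (log2 ratio 0.25, SE 0.10, unadjusted p = 0.042, adjusted p = 0.31). Erv41 (DN8074_c1_g1), which in yeast forms a retrieval receptor with Erv46, had 89.3, 116 and 106 FPKM in immature bottles 1, 2 and 3 and 75.4, 90.3 and 87.9 FPKM in mature bottles 1, 2 and 3. The groups overlapped, because immature bottle 1 was at the level of the mature bottles (log2 ratio -0.29, SE 0.13, unadjusted p = 0.074, adjusted p = 0.36). The unigene with the highest level of the role was the 383-base Sec23 unigene DN7121_c0_g2, at a mean of 190.3 FPKM, more than 3 times that of the longest Sec23 unigene (52.8 FPKM).

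The 18 unigenes of the COPI coat, which stand for 8 proteins, had 15 log2 ratios below 0 and a median of -0.09. In none (0) did the groups separate, against 22.9% of all tested unigenes. The 376-base β′ unigene DN5287_c0_g3, named after its values were seen, had 47.6, 60.9 and 71.4 FPKM in immature bottles 1, 2 and 3 and 37.1, 51.6 and 37.99 FPKM in mature bottles 1, 2 and 3. Mature bottles 1 and 3 were below every immature bottle and mature bottle 2 within their range (log2 ratio -0.49, SE 0.20, unadjusted p = 0.048, adjusted p = 0.32), while DN5287_c0_g2, a longer unigene matched to the same protein (1169 bases), had a log2 ratio of 0.04, the highest of the role among unigenes of at least 500 bases. The lowest of these was the δ unigene DN1790_c0_g2 (-0.38, unadjusted p = 0.16). The most abundant, ζ (DN5094_c0_g1, mean 119 FPKM), had a ratio of -0.21 (unadjusted p = 0.25). The 256-base β′ unigene DN1362_c0_g1 was the only one of the 160 listed at 0 anywhere, in immature bottle 3 and mature bottle 1.

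Sec7 proteins, which switch on Arf GTPases and so start COPI and clathrin coats at the Golgi, gave 4 unigenes of 2 proteins. The pair on one protein lay above 0, DN8892_c1_g2 at 0.16 and DN7960_c0_g1 at 0.17, and the pair on the other below, DN5494_c0_g4 at -0.29 and DN5494_c0_g1 at -0.13. In DN5494_c0_g4 the values were 34.6, 28.5 and 30.6 FPKM (immature) and 27.6, 24.2 and 24.1 FPKM (mature) in bottles 1, 2 and 3, with every mature bottle below every immature one (log2 ratio -0.29, SE 0.12, unadjusted p = 0.052, adjusted p = 0.33).

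TRAPP had no unigene (0 of 7) at an unadjusted p of at most 0.05, which 15.4% of all tested unigenes had. Its extremes were Bet3 (DN2553_c0_g1, 0.22), a core subunit and the most abundant one, and a TRAPPC6B match (DN3343_c0_g1, -0.34). The exocyst, which holds secretory vesicles at the plasma membrane of growing tips, had none either (0 of 10). Its most abundant unigene, the Sec5 match DN4817_c0_g2, had 154, 96.9 and 104 FPKM in immature bottles 1, 2 and 3 and 94.5, 75.3 and 81.05 FPKM in mature bottles 1, 2 and 3. All mature bottles were below all immature ones, and immature bottle 1 was far above the rest (log2 ratio -0.47, SE 0.20, unadjusted p = 0.057, adjusted p = 0.34). The other unigene matched to the same protein, at a mean of 31.2 FPKM, had a ratio of -0.09. The Sec3 match DN9011_c0_g2 had the highest ratio of the exocyst unigenes of at least 500 bases, 0.12. In the GARP complex, which receives endosome-derived vesicles at the Golgi, all 3 Vps54 unigenes lay below 0. DN4155_c0_g1 had 29.03, 44.4 and 34.7 FPKM in immature bottles 1, 2 and 3 and 29.1, 24.6 and 22.5 FPKM in mature bottles 1, 2 and 3. The groups overlapped by less than 0.1 FPKM, through immature bottle 1 and mature bottle 1 (log2 ratio -0.48, SE 0.19, unadjusted p = 0.043, adjusted p = 0.31). The most abundant GARP unigene, a Vps52 match (DN4552_c0_g2), was also the one with the highest ratio, 0.07.

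Among the 13 unigenes of the SNARE role the median log2 ratio was 0.02. It was -0.0016 with all libraries scaled to the same sum. The 13 included 1 unigene that is no SNARE, a match to the vesicle-fusing ATPase (DN5266_c0_g2, ratio -0.16). The other 12 had a median of 0.04 without rescaling. Synaptobrevin DN4733_c0_g1, on the vesicle side of fusion at the plasma membrane, had 638, 798 and 735 FPKM in immature bottles 1, 2 and 3 and 757, 691 and 742 FPKM in mature bottles 1, 2 and 3, with a 95% interval of the log2 ratio of -0.31 to 0.35. Bet1 (DN3757_c1_g1, 456 bases), a SNARE of ER-to-Golgi vesicles, had 26.2, 34.4 and 31.6 FPKM in immature bottles 1, 2 and 3 and 43.6, 37.7 and 36.3 FPKM in mature bottles 1, 2 and 3, and the mature bottles were all higher (log2 ratio 0.35, SE 0.14, unadjusted p = 0.048, adjusted p = 0.32). Bos1 (DN5745_c0_g1), which acts in the same fusion step, had the lowest ratio of the role, -0.27 (unadjusted p = 0.17). The highest among unigenes of at least 500 bases was DN4616_c0_g2, of the VAMP7 family, at 0.18. Ykt6 (DN8805_c0_g3), a SNARE of several fusion steps, had 233, 259.6 and 231 FPKM (immature) and 213, 202 and 204 FPKM (mature), and Pep12 (DN4911_c0_g1), the syntaxin of endosomes, had 20.04, 19.2 and 19.5 FPKM (immature) and 17.1, 16.4 and 16.1 FPKM (mature). In both, the mature bottles were all below the immature ones, at an unadjusted p of 0.057 and 0.071. Bet1, Ykt6 and Pep12 were named after their values were seen.

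The 9 unigenes of HOPS, CORVET and the Sec1/Munc18 proteins, which tether vacuolar and endosomal membranes and clasp SNAREs, had no unadjusted p of at most 0.05 (0 of 9, against 15.4% of all tested). Their log2 ratios ran from -0.23 for Vps41 (DN4480_c0_g1), a HOPS subunit, to 0.24 for Sec1 (DN8578_c0_g1), which works with the plasma-membrane SNAREs. The Sec1 ratio came from mature bottle 1, at 46.01 FPKM against 26.4 to 30.8 FPKM in the other 5 libraries. Vps33 (DN4471_c0_g2), the most abundant, had a ratio of 0.10. The 3 unigenes outside these roles were a match to VAP, which anchors proteins at the ER membrane (DN7934_c1_g2, mean 153 FPKM, ratio 0.05), the Golgi tether Uso1 (DN7755_c0_g2, -0.15) and the gap-2 match DN4696_c0_g3 (0.09), all with an unadjusted p above 0.05.

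The 25 unigenes of clathrin and its adaptors held the largest ratio, in either direction, among the traffic unigenes of at least 500 bases. AP-1 sorts cargo between the Golgi and endosomes, and its small subunit σ was carried by 2 unigenes. The first, DN7376_c0_g1 (971 bases), had 106, 114 and 94.6 FPKM in immature bottles 1, 2 and 3 and 91.4, 55.7 and 57.5 FPKM in mature bottles 1, 2 and 3. All mature bottles were lower, but mature bottle 1 lay close to the immature range while mature bottles 2 and 3 were far below it (log2 ratio -0.65, SE 0.21, unadjusted p = 0.021, adjusted p = 0.25). The second, DN6120_c0_g1 (927 bases), had 47.5, 46.02 and 49.2 FPKM in immature bottles 1, 2 and 3 and 61.03, 49.7 and 58.9 FPKM in mature bottles 1, 2 and 3. Here the mature bottles were all higher, by a smaller ratio (log2 ratio 0.24, SE 0.11, unadjusted p = 0.073, adjusted p = 0.36). The second unigene was named after its values were seen, and the difference between the pair was not tested. The 8 other AP-1 unigenes had ratios between -0.10 and 0.15. All 5 unigenes of AP-2, the adaptor of endocytosis, lay below 0, from -0.38 for σ (DN7819_c0_g1, unadjusted p = 0.093) to -0.12 for μ (DN8558_c0_g2), and none (0) had an unadjusted p of at most 0.05, against 15.4% of all tested.

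Clathrin heavy chain, the leg of the clathrin lattice, was carried by 6 unigenes that matched one *P. ostreatus* protein, and all 6 log2 ratios were above 0, from 0.03 to 0.30. They share their source and were not counted as 6 genes. The most abundant, DN2641_c0_g2, had 283, 258 and 272 FPKM in immature bottles 1, 2 and 3 and 261, 317 and 338 FPKM in mature bottles 1, 2 and 3. DN1611_c0_g2 had 121, 114 and 122 FPKM in immature bottles 1, 2 and 3 and 119, 154 and 171 FPKM in mature bottles 1, 2 and 3, and the longest, DN1611_c0_g1 (1305 bases), had 96.1, 94.8 and 121 FPKM in immature bottles 1, 2 and 3 and 104, 136 and 145 FPKM in mature bottles 1, 2 and 3. In all 3, mature bottles 2 and 3 stood above every immature bottle and mature bottle 1 lay within the immature range, and the unadjusted p was 0.25, 0.094 and 0.12. With all bottles, under the 12 other settings and in the fits that dropped a bottle other than mature bottle 1, none of the 6 (0) had an unadjusted p of at most 0.05. Without that bottle, which was singled out after its values were seen, 5 of the 6 had such a p, with ratios between 0.27 and 0.45, in a fit where 18.9% of all tested had one. In the clathrin light chain (DN2155_c0_g1) the values were 132, 159.6 and 137 FPKM (immature) and 132, 145 and 147 FPKM (mature) in bottles 1, 2 and 3, with a ratio of -0.01 and a 95% interval of -0.28 to 0.25. That sign turned positive under upper-quartile scaling.

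**Figure D2:**
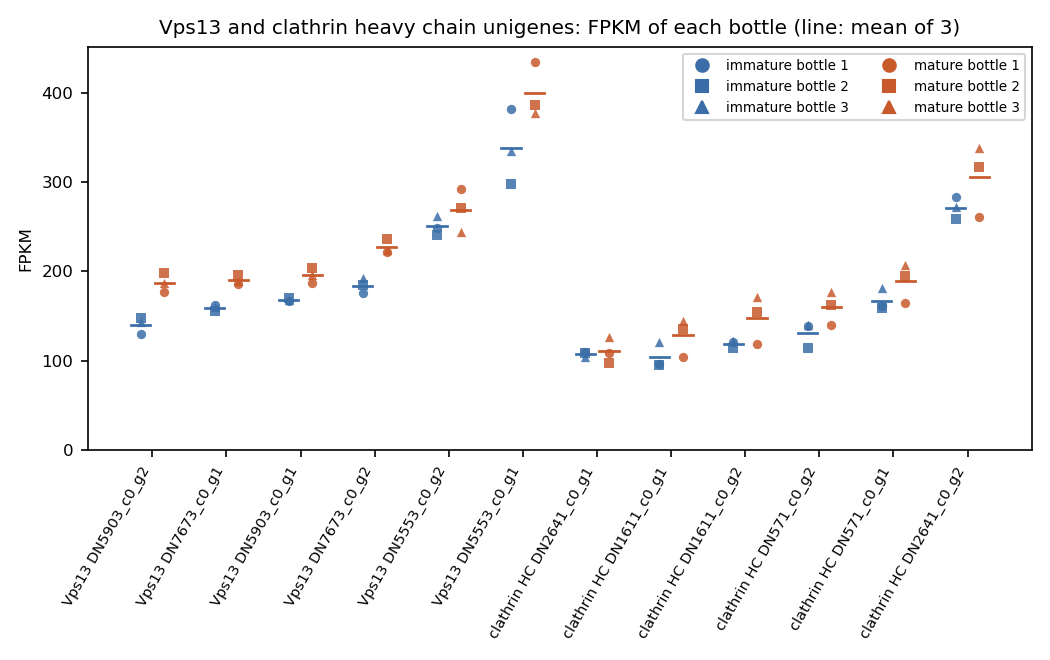
FPKM (y axis, linear from 0) of the 6 Vps13 unigenes of one protein and the 6 clathrin heavy chain unigenes of one protein (x axis), with 1 symbol per bottle, blue for immature and orange for mature mycelia, and a line at the mean of 3. The mature symbols of 4 Vps13 unigenes all lie above the immature ones, whereas in most clathrin unigenes mature bottle 1 (circle) lies at the immature level.

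Vps13 gave the steadiest of the higher values. It is a rod-shaped protein that in yeast carries lipids between membranes at contact sites of the vacuole, mitochondria, endosomes and the prospore membrane. Its 6 unigenes that matched one *P. ostreatus* protein all had ratios above 0. DN5903_c0_g2 (1387 bases) had 129.8, 147 and 143 FPKM in immature bottles 1, 2 and 3 and 177, 198 and 187 FPKM in mature bottles 1, 2 and 3, means of 140.2 ± 9.14 FPKM (SD, n = 3) and 187 ± 10.5 FPKM (SD, n = 3). The longest, DN7673_c0_g1 (3826 bases), had 162, 155 and 160.4 FPKM in immature bottles 1, 2 and 3 and 186, 196 and 189 FPKM in mature bottles 1, 2 and 3. In both, every mature bottle exceeded every immature one by a margin wider than the range within either group. The same held for DN7673_c0_g2, and in DN5903_c0_g1 the groups were also apart. In DN5903_c0_g2, DN7673_c0_g2, DN7673_c0_g1 and DN5903_c0_g1, in that order, the log2 ratios were 0.42, 0.30, 0.26 and 0.22. Their unadjusted p were 0.0052, 0.014, 0.021 and 0.044, and their adjusted p 0.18, 0.22, 0.25 and 0.31 (limma).

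The remaining unigenes of that protein, DN5553_c0_g1 and DN5553_c0_g2, were the most abundant at means of 369 and 259.6 FPKM, with ratios of 0.25 and 0.10 and overlapping groups. A second Vps13 protein, carried by DN9033_c0_g1 (6335 bases), had 95.6, 101 and 116 FPKM in immature bottles 1, 2 and 3 and 105, 74.9 and 125 FPKM in mature bottles 1, 2 and 3. There the immature range lay inside the mature one, and the ratio was -0.06. Of the 27 Nr proteins with several unigenes here, 20 had all ratios of one sign, and among the 21 with several of at least 500 bases the ratios of one protein differed by a median of 0.12 and at most 0.38. Their levels differed by a median of 1.71 times and at most 6.64 times.

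Other sorting factors of the vacuolar pathway differed in both directions. Vps55 (DN9111_c0_g3), a small endosomal membrane protein that in yeast acts between late endosome and vacuole, had 296, 264 and 313 FPKM in immature bottles 1, 2 and 3 and 324, 381 and 410.4 FPKM in mature bottles 1, 2 and 3, all mature bottles being higher (log2 ratio 0.35, SE 0.13, unadjusted p = 0.039, adjusted p = 0.30). Vps74 (DN4127_c0_g2), which in yeast keeps glycosyltransferases in the Golgi, had 37.99, 40.4 and 42.3 FPKM in immature bottles 1, 2 and 3 and 33.9, 29.5 and 28.9 FPKM in mature bottles 1, 2 and 3, all mature bottles being lower (log2 ratio -0.38, SE 0.11, unadjusted p = 0.013, adjusted p = 0.21). A second unigene of the name, DN4127_c0_g1, was more abundant and had 172, 182 and 176 FPKM (immature) and 170.2, 144 and 164 FPKM (mature) in bottles 1, 2 and 3, with a ratio of -0.15 (unadjusted p = 0.18). All 4 unigenes of Vps1, a dynamin-like GTPase that pinches membranes, lay below 0, from -0.44 to -0.12, but none (0) had an unadjusted p of at most 0.05, against 15.4% of all tested. Immature bottle 2 was the highest library in each of the 4, and in DN7845_c0_g5 the values were 57.4, 95.5 and 75.3 FPKM (immature) and 72.3, 48.4 and 46.7 FPKM (mature).

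Vps27, which gathers ubiquitin-tagged cargo as the first ESCRT complex, was carried by 2 unigenes, and only the first was lower at an unadjusted p of at most 0.05. DN8944_c0_g1 (2993 bases), the most abundant ESCRT unigene, had 104, 78.4 and 88.6 FPKM in immature bottles 1, 2 and 3 and 66.7, 66.7 and 65.8 FPKM in mature bottles 1, 2 and 3. The mature bottles were within 1 FPKM of each other and all below the immature range (log2 ratio -0.43, SE 0.12, unadjusted p = 0.012, adjusted p = 0.21). DN9021_c0_g1 (5218 bases) had 44.99, 39.4 and 41.4 FPKM (immature) and 41.3, 37.3 and 39.9 FPKM (mature) and a ratio of -0.08, with overlapping groups and a 95% interval of -0.33 to 0.16. The other 4 ESCRT unigenes had unadjusted p between 0.34 and 0.68, and the highest ratio among those of at least 500 bases was that of Vps28 (DN3706_c0_g1, 0.12).

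Retromer, which returns sorting receptors from endosomes to the Golgi, and the receptor Vps10 had no unadjusted p of at most 0.05 (0 of 8, against 15.4% of all tested). Vps26 (DN4770_c0_g1), the most abundant, had 126, 250.4 and 248 FPKM in immature bottles 1, 2 and 3 and 186, 173 and 179.7 FPKM in mature bottles 1, 2 and 3, and immature bottle 1 alone was low. The 236-base Vps26 unigene DN4770_c0_g2 was low in the same bottle, at 25.3, 88.9 and 80.9 FPKM (immature) and 46.99, 36.8 and 45.8 FPKM (mature). Without immature bottle 1 the ratios of the pair were -0.47 and -0.97, against -0.15 and -0.40 with all bottles. Vps35, the central subunit, had ratios of -0.08 (DN3923_c0_g1) and -0.06 (DN4641_c0_g1), and the highest ratio of the role was 0.05 for a Vps10 unigene, DN8586_c0_g2.

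**Figure D3:**
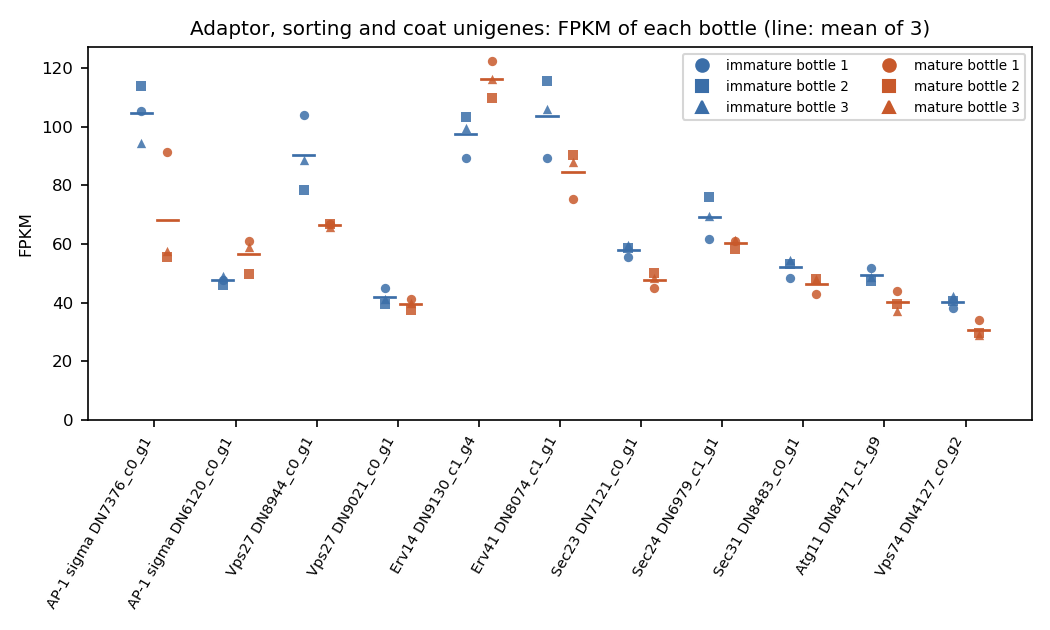
FPKM (y axis, linear from 0) of 11 adaptor, sorting, coat and autophagy unigenes (x axis), with 1 symbol per bottle, blue for immature and orange for mature mycelia, and a line at the mean of 3. The mature bottles of the first AP-1 σ and of the first Vps27 unigene lie below the immature ones, while those of the second AP-1 σ unigene lie above and those of the second Vps27 unigene overlap.

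The autophagy unigenes numbered 18, from 11 Nr proteins, and 13 of them had a log2 ratio below 0 (median -0.09). At an unadjusted p of at most 0.05, 2 of the 18 (11.1%) were lower and none (0) higher, against 9.33% lower and 6.09% higher among all tested unigenes. Of all 16496 tested, 9511 had a ratio below 0. Atg8, the ubiquitin-like protein that is joined to the lipid of the autophagosome membrane, was the most abundant, in 2 unigenes. DN7468_c0_g3 had 226, 307 and 248 FPKM in immature bottles 1, 2 and 3 and 321, 216 and 219 FPKM in mature bottles 1, 2 and 3, and DN7468_c0_g2 had 104, 134 and 106 FPKM in immature bottles 1, 2 and 3 and 129, 109 and 107 FPKM in mature bottles 1, 2 and 3. The groups overlapped in both, with the top values in immature bottle 2 and mature bottle 1, and the ratios were -0.06 and 0.01, with 95% intervals of -0.56 to 0.43 and -0.33 to 0.36. The sign of the second turned negative with all libraries scaled to the same sum. Atg3, the enzyme that attaches Atg8 to lipid (DN4570_c0_g1), had 93.4, 108 and 99.8 FPKM (immature) and 98.9, 80.3 and 78.2 FPKM (mature) and a ratio of -0.23 (unadjusted p = 0.11). Atg5 (DN5143_c0_g1), part of the complex that helps this step, had 21.7, 19.9 and 17.7 FPKM (immature) and 18.8, 15.96 and 16.9 FPKM (mature) and a ratio of -0.19 (unadjusted p = 0.21).

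Atg11, a scaffold that in yeast brings selected cargo to the autophagy machinery, was lower in every mature bottle. DN8471_c1_g9 (3477 bases) had 51.9, 47.5 and 48.7 FPKM in immature bottles 1, 2 and 3 and 43.8, 39.6 and 37.2 FPKM in mature bottles 1, 2 and 3, means of 49.4 ± 2.30 FPKM (SD, n = 3) and 40.2 ± 3.33 FPKM (SD, n = 3) (log2 ratio -0.29, SE 0.10, unadjusted p = 0.029, adjusted p = 0.27). Atg9, the membrane-spanning protein that seeds the new membrane and moves lipid between its leaflets, was carried by 3 unigenes of one *P. ostreatus* protein, all with ratios below 0. The 295-base unigene DN376_c0_g1 had 36.03, 36.3 and 46.8 FPKM in immature bottles 1, 2 and 3 and 23.2, 22.6 and 17.7 FPKM in mature bottles 1, 2 and 3. No bottles overlapped, and it had the lowest p of the 160 (log2 ratio -0.88, SE 0.16, unadjusted p = 0.0017, adjusted p = 0.13). The longer unigenes overlapped between groups: DN4432_c0_g1 (829 bases) had 26.2, 31.6 and 34.7 FPKM (immature) and 27.4, 26.3 and 19.9 FPKM (mature), and DN1793_c0_g1 (939 bases) had 14.9, 22.3 and 19.5 FPKM (immature) and 22.7, 11.6 and 13.3 FPKM (mature). Their ratios were -0.32 and -0.28, with unadjusted p of 0.11 and 0.36.

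Atg2 carries lipid into the growing membrane. Its 4 unigenes of one protein, DN7993_c0_g1, DN7993_c0_g2, DN7993_c0_g3 and DN6048_c0_g2, had ratios of -0.03, 0.01, -0.03 and -0.12, and all 4 intervals lay within 0.5 of 0. Atg22, a vacuolar membrane protein that in yeast exports amino acids, gave 3 unigenes with ratios of -0.04 (DN4644_c0_g1), 0.07 (DN6787_c0_g1) and 0.05 (DN4644_c0_g4), also within those bounds. Atg18, which binds phosphoinositides on the forming membrane, gave 0.04 (DN4167_c0_g1) and -0.13 (DN9774_c0_g1), and mature bottle 1 was the highest library in both. The 356-base match to Vps30, which is Atg6 in yeast and beclin in animals (DN3423_c0_g2), had 17.2, 27.2 and 35.9 FPKM in immature bottles 1, 2 and 3 and 26.7, 4.67 and 11.6 FPKM in mature bottles 1, 2 and 3. Mature bottles 2 and 3 were the lowest libraries, but mature bottle 1 lay within the immature range (log2 ratio -1.08, SE 0.60, unadjusted p = 0.12, adjusted p = 0.43). Its best Nr match was a *Termitomyces* protein.

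**Figure D4:**
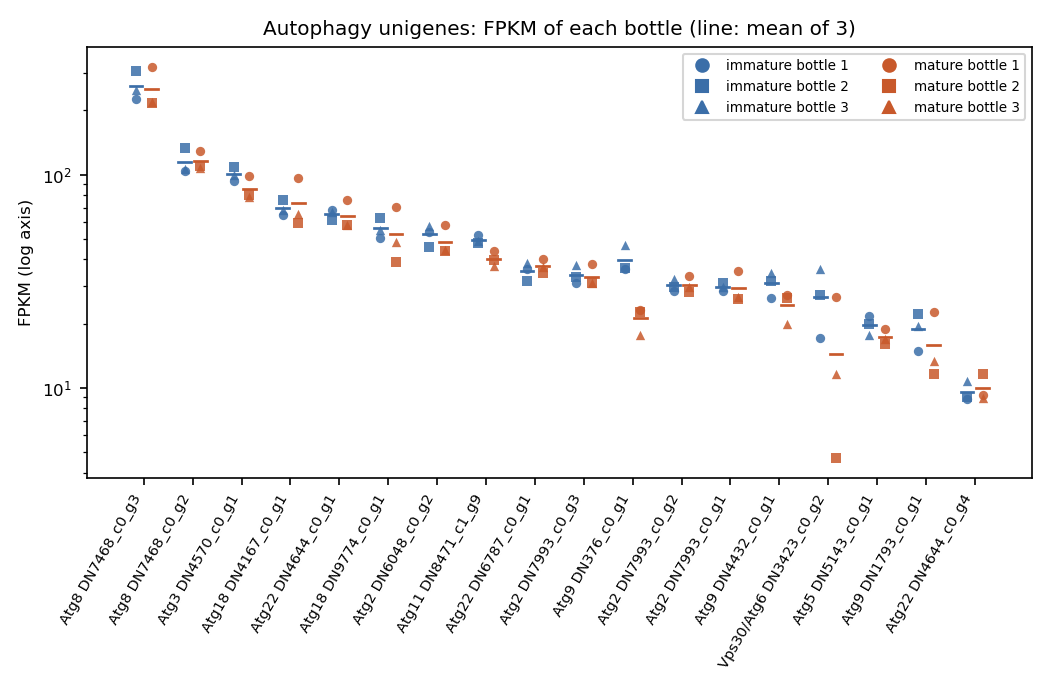
FPKM (y axis, log axis) of the 18 autophagy unigenes (x axis, in order of their mean), with 1 symbol per bottle, blue for immature and orange for mature mycelia, and a line at the mean of 3. Mature and immature bottles separate only in Atg11 DN8471_c1_g9 and Atg9 DN376_c0_g1.

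Single bottles shaped these values. Mature bottles 2 and 3 were both outside the immature range in 66 of the 160 unigenes (41.3%), 20 above and 46 below, and in 27 of those 66 (40.9%) mature bottle 1 was inside it, against 40.6% and 31.4% over all tested. In the plot of autophagy FPKM by bottle, mature bottle 1 was the highest mature bottle in 17 of 18 unigenes (94.4%), against 55.6% of the 160 and 45.3% of all tested, a count made after the values were seen. Without mature bottle 1, 13 unigenes were higher and 17 lower at an unadjusted p of at most 0.05, 30 in all (18.8%). In that fit 6.82% of all tested were higher and 12.1% lower, 18.9% in all. Of the 30, 12 were among the 15 found with all bottles. Because mature bottle 1 was the highest of the 3 mature bottles in nearly all autophagy unigenes, leaving it out lowered their median log2 ratio, from -0.09 to -0.25, while that of all tested was -0.09 in the same fit. Without immature bottle 1, 5 unigenes were higher and 15 lower, against 7.13% and 9.58% of all tested. Without immature bottle 2 the counts were 7 and 7, against 4.63% and 8.95%. Without immature bottle 3 they were 4 and 5, against 4.61% and 6.79%. Without mature bottle 2 they were 4 and 5, against 4.45% and 6.18%, and without mature bottle 3 they were 3 and 5, against 3.96% and 6.07%. Leaving out a bottle also brought 1 unigene each past the thresholds of the study. These were Vps24 (DN3983_c0_g2, 255 bases, higher) without immature bottle 2, coatomer β′ (DN1362_c0_g1, 256 bases, lower) without immature bottle 3, and Vps30 (DN3423_c0_g2, 356 bases, lower) without mature bottle 1. All 3 are shorter than 500 bases.

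**Figure D5:**
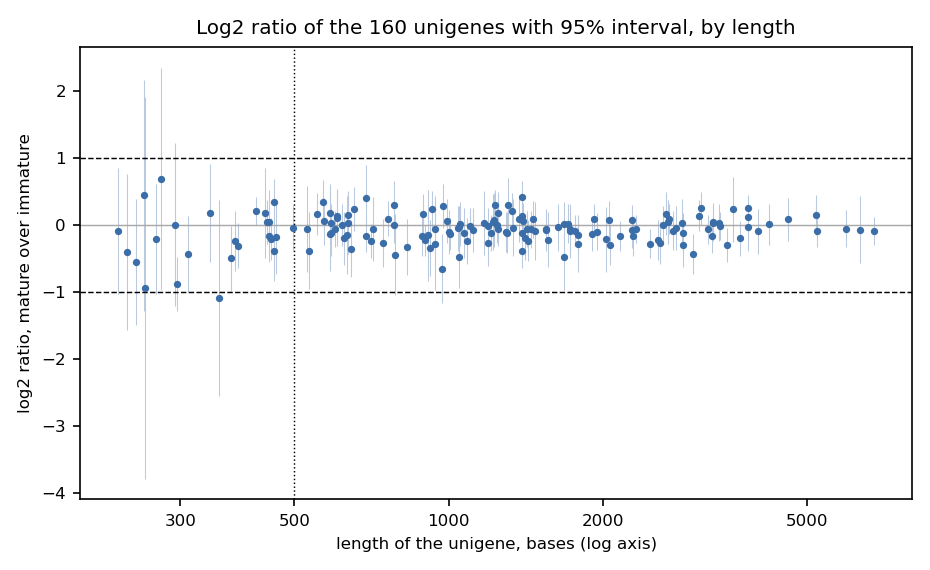
Log2 ratio of mature over immature mycelia (y axis) with its 95% interval for each of the 160 unigenes against the length of the unigene in bases (x axis, log axis), with the fold threshold of the study dashed and 500 bases dotted. The intervals narrow with length, and beyond 500 bases 133 of 135 lie within 1 of 0.

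The 15 unigenes at an unadjusted p of at most 0.05 kept the sign of their ratio in every alternative fit they entered. They were picked by p in the same data, so a kept sign is no separate evidence. Of all 160, 106 kept their sign in every alternative fit and 54 changed it in some fit. In 4 of the 15 the p stayed at or below 0.05 throughout, over 6 fits without 1 bottle and 12 with other settings: Vps13 DN5903_c0_g2 and DN7673_c0_g2 (higher), and Vps27 DN8944_c0_g1 and Vps74 DN4127_c0_g2 (lower). The lowest adjusted p of any of the 160 in any of these fits was 0.097, for AP-1 σ (DN7376_c0_g1) without mature bottle 1. In the plot of log2 ratio against length the wide intervals stand on the left: of the 6 unigenes with a ratio beyond 0.5 in either direction, 5 were under 400 bases, and the exception was AP-1 σ.

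The neighbouring genes of the same pathways, which the name rule had left out, were counted from lists of names, against the 6.09% of all tested unigenes that were higher and the 9.33% that were lower at an unadjusted p of at most 0.05. Of 25 unigenes of Rab, Arf and Sar1 GTPases and their regulators, 1 was higher and 0 lower at that p, with a median log2 ratio of 0.04. The one was an Arf6 match, a GTPase of the plasma membrane and endosomes (DN3271_c0_g1), with 652, 553 and 647 FPKM (immature) and 686, 832 and 925 FPKM (mature) in bottles 1, 2 and 3. Of 15 unigenes of the vacuolar proton pump, which acidifies the vacuole, 1 was higher and 0 lower (median 0.01). It was a match to the catalytic subunit A (DN6935_c0_g1), with 51.3, 52.9 and 48.2 FPKM (immature) and 60.6, 64.6 and 65.5 FPKM (mature). In DN3271_c0_g1 and DN6935_c0_g1 every mature bottle was above every immature one. A second match to subunit A, DN6935_c0_g2, was more abundant, with means of 114 FPKM (immature) and 105 FPKM (mature) and overlapping groups. Its log2 ratio was -0.10 (unadjusted p = 0.54, limma).

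Against the same background of 6.09% and 9.33%, 2 of 12 unigenes of ER entry were higher and 2 lower (median 0.06). Sec63 (DN5861_c0_g1), which works with the Sec61 channel, was higher (log2 ratio 0.34) and Sec66 (DN3696_c0_g1), a partner of Sec63 in yeast, lower (-0.29). Of 37 unigenes named for the Golgi, endosomes, sorting nexins or ESCRT subunits, 0 were higher and 5 lower (median -0.10). The list also held Golgi membrane proteins, Arf exchange factors and SNAREs. The lower ones were Tvp38 of the Golgi membrane (DN8523_c1_g1, -0.44, and DN459_c0_g1, -0.25), a sorting nexin 14 match (DN6172_c0_g2, -0.49), ESCRT subunit CHMP6 (DN2297_c0_g1, -0.31) and a unigene of Cog5, a subunit of the Golgi tether COG (DN9028_c0_g10, -0.38). A more abundant Cog5 unigene of the same protein, DN9028_c0_g1, had a ratio of 0.05 (unadjusted p = 0.78, limma). Another, DN9028_c0_g11 (235 bases), was at 0 FPKM in most libraries. Of 22 unigenes of TOR complex subunits, the phosphatidylinositol 3-kinase Vps34, carboxypeptidase Y and its inhibitor, 3 were higher and 0 lower (median -0.03). The higher ones were a subunit of TOR complex 2 (DN7611_c0_g1, log2 ratio 0.36) and 2 of the 11 matches to carboxypeptidase Y, a vacuolar protease. Of these, DN10344_c0_g1 (483 bases) had 219.6, 159 and 177 FPKM (immature) and 243, 254 and 263 FPKM (mature). A longer, more abundant unigene of the same protein, DN5901_c0_g1 (4943 bases), had 383, 220 and 310 FPKM (immature) and 304, 452 and 363 FPKM (mature). There the groups overlapped, with a log2 ratio of 0.31 (unadjusted p = 0.26, limma). Of the 11 carboxypeptidase Y matches, 5 lay above and 6 below 0, down to -1.42 (DN1459_c0_g2, 258 bases, unadjusted p = 0.068). None of the 111 unigenes on these lists (0) had an adjusted p under 0.05 or passed the thresholds of the study.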

How the data were processed

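RNA of 3 immature and 3 mature bottles was sequenced. The authors trimmed reads with cutadapt, used Trinity and then TGICL-2.1 for assembly and clustering, kept the longest isoform of each subcomponent and estimated abundance with RSEM. The deposited values are FPKM, with the length and database matches of 17030 unigenes, and sum to 1206300 to 1238510 per library. The read counts behind the authors' own comparison were not used here.

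FPKM were compared as log2(FPKM + 1) with limma 3.58.1 in R 4.3.3 (eBayes with trend=TRUE, two-sided, no covariates) for the 16496 unigenes with a mean above 1, adjusted by Benjamini-Hochberg over all of them and tested on simulated data. The added 1 understates ratios of low unigenes. Samples were grouped by the labels, and bottles by column name.

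The unigenes, roles and lists were chosen with earlier results of these data known. Roles of names not covered by a word list, such as Vps30, Sec9 and Uso1, were placed by hand after the table was opened. Unigenes named were those past the thresholds of the study or an adjusted p of 0.05 (0 here); in each role, the most abundant and the highest and lowest ratio of at least 500 bases; all autophagy unigenes; and those of at least 500 bases with an unadjusted p of at most 0.05 and no overlap. Others, including further unigenes of the same proteins, were named after their values were seen. Vps54 (DN4155_c0_g1) was named as the lowest ratio of GARP. Alternatives changed the added value, the filter, the scale between libraries, the variance prior and the unigenes or bottles included. Plots were made in matplotlib 3.10.9 (Python 3.11.15). No nucleotide or protein sequences were used here.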

Additional observations from a re-analysis of the deposited data

How the results depend on the processing

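None of the 160 unigenes (0) passed an adjusted p of 0.05 in limma under any alternative, and the median log2 ratio of the 160 stayed below 0 in all of them (-0.08 to -0.03 without 1 bottle). The thresholds of the study were passed by 0 to 1 unigene in each direction without 1 bottle and by none (0) under the other alternatives. At an unadjusted p of at most 0.05, without 1 bottle, 3 to 13 were higher and 5 to 17 lower. The 7 higher became 4 when scaled to the same sum, 4 without a variance trend (5.48% of all tested), 4 with the trend on length (5.92%) and 4 with each Nr protein counted once. The 8 lower became 5 under upper-quartile scaling, 5 under quantile normalization and 5 with each Nr protein counted once. Counting each protein once left 114 proteins in place of 160 unigenes, so these counts were bound to fall. No share of all tested unigenes counted that way stands beside them. Across the 3 other scalings, 13 to 16 of the 18 COPI, 9 to 10 of the 12 COPII and 10 to 15 of the 18 autophagy unigenes had a ratio below 0. The bottle numbers did not pair the libraries, as the correlations of the deviations of equally numbered bottles were -0.089, -0.043 and -0.0097. Among unigenes of at least 500 bases they were -0.24, -0.20 and 0.025 for bottles 1, 2 and 3. With the replicate number as a block, 2 were higher and 10 lower, against 4.85% and 7.58% of all tested.

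Some ratios near 0 changed sign, each with a p above 0.05 in the fit of all 6 libraries. Scaled to the same sum, DN7993_c0_g2 was at -0.0116, DN4733_c0_g1 was at -0.00156, DN7468_c0_g2 was at -0.00707 and DN4824_c0_g1 was at -0.0112. Under upper-quartile scaling, DN7993_c0_g1 was at 0.00862, DN7993_c0_g3 was at 0.0109 and DN2155_c0_g1 was at 0.0287. Under quantile normalization, DN7993_c0_g1 was at 0.0129, DN4733_c0_g1 was at -0.0571, DN7993_c0_g3 was at 0.0171, DN4824_c0_g1 was at -0.0687 and DN4644_c0_g1 was at 0.00230. Without 1 bottle, the ratio ranged from -0.0595 to 0.0628 in DN7993_c0_g2, from -0.0693 to 0.0919 in DN4733_c0_g1, from -0.0715 to 0.13 in DN7468_c0_g2, from -0.0430 to 0.12 in DN8586_c0_g2, from -0.16 to 0.17 in DN5287_c0_g2, from -0.0527 to 0.0712 in DN4824_c0_g1 and from -0.16 to 0.18 in DN4167_c0_g1. It ranged from -0.25 to 0.0630 in DN7468_c0_g3, from -0.47 to 0.0211 in DN4770_c0_g1, from -0.000485 to 0.13 in DN6787_c0_g1, from -0.0653 to 0.0684 in DN2155_c0_g1, from -0.0317 to 0.15 in DN7934_c1_g2, from -0.13 to 0.0464 in DN7993_c0_g3 and from -0.21 to 0.0323 in DN9829_c0_g1. It ranged from -0.0100 to 0.16 in DN4552_c0_g2, from -0.17 to 0.0446 in DN7993_c0_g1, from -0.0512 to 0.13 in DN4644_c0_g4, from -0.35 to 0.0642 in DN9774_c0_g1, from -0.17 to 0.0216 in DN4644_c0_g1 and from -0.0623 to 0.12 in DN2641_c0_g1. The cause of these changes was not tested. The fragments behind each FPKM are unknown, which limits the short unigenes most.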

Other observations

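Unigenes of eggNOG category U (intracellular trafficking and secretion) that the name rule had not picked numbered 435. At an unadjusted p of at most 0.05, 21 of them were higher and 36 lower in mature mycelia in the limma fit (13.1% in all, against 15.4% of all tested unigenes), and none (0) had an adjusted p under 0.05. The thresholds of the study were passed by 2 higher and 2 lower. Their median log2 ratio was -0.05, against -0.06 for the 160 traffic and autophagy unigenes and -0.07 for all tested.

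The 16 traffic and autophagy unigenes whose best Nr match was outside *Pleurotus* had a median length of 767 bases, against 1227 bases for the 144 matched to *Pleurotus*. All 15 unigenes with an unadjusted p of at most 0.05 (limma) were among the 144 and none (0) among the 16. Of all tested unigenes 15.4% had such a p, and 16 unigenes are too few to set against that share. A difference between the 16 and the 144 was not tested.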
